A study of Mus musculus with 4 samples.

Results

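The 44 genes described here encode the machinery that copies DNA and divides the cell. They were chosen by symbol, and all 44 were found among the 24346 genes measured by RNA-seq in mBMSCs. mBMSCs are bone marrow-derived mesenchymal stem/progenitor cells, taken here from mice 3 months old whose strain is C57BL/6 in the labels and C57BL/6J in the methods. The study compared 2 groups of 2 samples, one transfected with siScr, a scrambled control siRNA, and one with siZBP1, siRNA against the mRNA of ZBP1, and RNA was collected 72 h after transfection. The study describes 2 siRNAs against ZBP1, and the sources used here do not say which of them each siZBP1 sample received. All 4 samples carried a transfected siRNA, and no untransfected cells were measured. The sources used here do not say whether the 2 samples of a group came from separate cultures or animals, so p-values measure only the spread between these samples, which may be technical. Levels are FPKM, fragment counts divided by transcript length in kilobases and scaled to the size of each library, so levels of different genes can be set side by side.

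A dividing cell prepares origins of replication in G1, copies its DNA in S phase and separates the copies in mitosis. Many genes needed for these steps are transcribed mainly in cells that cycle and in the phase where their product is used. Those of G1/S are known targets of E2F factors, and those of G2/M are known targets of the complexes built around B-MYB, FOXM1 and the MuvB core, which bind a promoter element called the CHR, often together with CCAAT boxes. Because the transcripts follow the phases, their summed level in a culture depends on the share of its cells that are dividing. In bulk RNA, more dividing cells and more of these transcripts per cell cannot be told apart. Of the 44 genes, 17 act or peak at G1/S and 27 at G2/M, by a division made from general knowledge of the genes.

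Promoter sequence was available in RefSeq (GRCm38.p6) for 36 of the 44 genes, as windows from 250 bases before to 50 bases after each annotated start. The sequences below were chosen because they hold an E2F or CHR match, in genes of both phases. Capitals mark matches to the E2F words TTTGGCGC, TTTCGCGC, TTTCCCGC and TTTGCCGC, to the CHR words TTTGAA and TTCGAA, or to CCAAT, each read on both strands, and each run is printed 5′ to 3′ on the strand of the gene. The first 3 show the 60 bases before the start of Mcm6 (chr1:128359706-128359765, minus strand), Top2a (chr11:99024190-99024249, minus strand) and Kif11 (chr19:37376322-37376381, plus strand).
Mcm6: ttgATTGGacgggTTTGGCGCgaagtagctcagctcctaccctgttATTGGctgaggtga
Top2a: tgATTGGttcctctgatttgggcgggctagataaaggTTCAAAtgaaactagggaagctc
Kif11: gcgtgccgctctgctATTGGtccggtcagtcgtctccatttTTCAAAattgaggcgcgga
The other 4 show 30 bases around an E2F or CHR match, in Mki67 (chr7:135716460-135716489, minus strand), Ube2c (chr2:164769888-164769917, plus strand), Cdk1 (chr10:69352966-69352995, minus strand) and Cdc6 (chr11:98908002-98908031, plus strand).
Mki67: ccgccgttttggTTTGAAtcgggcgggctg
Ube2c: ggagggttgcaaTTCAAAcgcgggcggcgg
Cdk1: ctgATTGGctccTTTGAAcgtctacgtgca
Cdc6: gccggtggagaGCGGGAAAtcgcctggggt

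A CHR match lay in the promoter window of 18 of the 22 G2/M genes with a window, or 81.8%, and in 3 of 14 G1/S genes, or 21.4%. The same letters occurred in 16.0% of the 9005 tested genes with a window and in 21.7% of all 27025 genes with one. CCAAT was found in 20 of 22 G2/M genes and 9 of 14 G1/S genes, against 43.0% of tested genes. All 18 G2/M genes with a CHR match also had a CCAAT match in the window, a combination found in 7.82% of tested genes. One of the E2F words was present in 6 of 14 G1/S genes and in 1 of 22 G2/M genes (Cdk1), against 4.81% of tested genes. In 17 of the 18 G2/M genes with a CHR match at least 1 match began between 60 bases before and 50 bases after the start. A match describes the letters in these windows and is no evidence of binding in mBMSCs. In 1 place in the members' windows, in Mcm7, an E2F match and a CCAAT match shared bases.

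**Figure D1:**
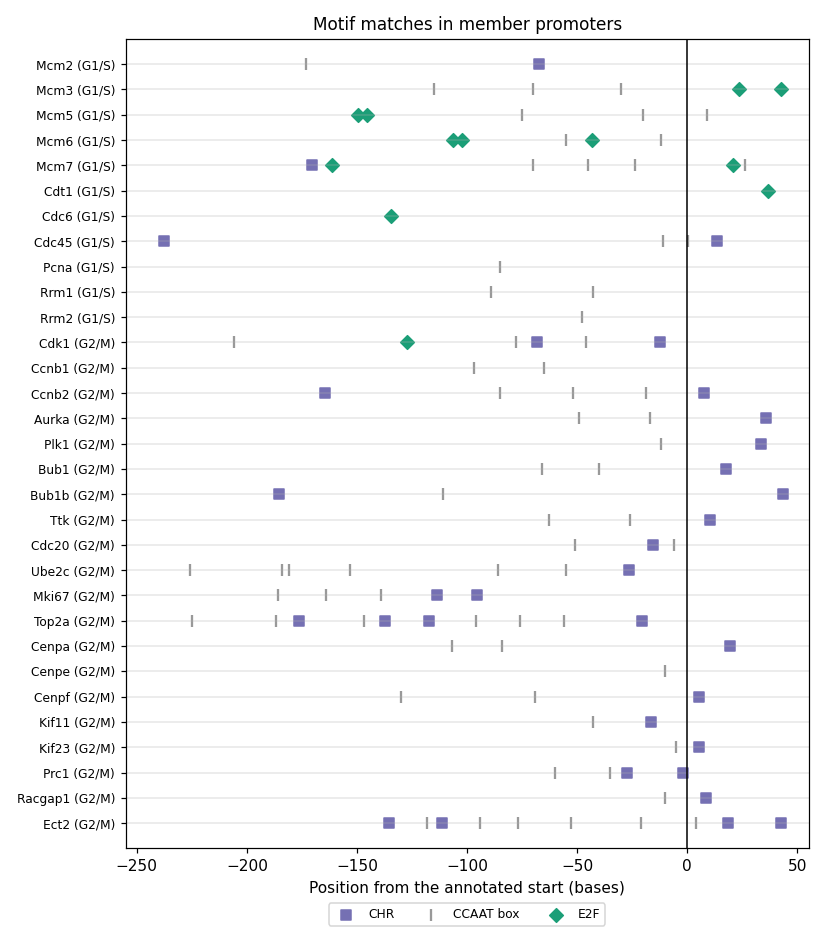
Positions of CHR (squares), CCAAT (bars) and E2F (diamonds) matches in the promoter windows of the members with at least 1 match, in bases from the annotated start (vertical line), with G1/S genes above and G2/M genes below. CHR matches occur in 18 of 22 G2/M genes and E2F matches in 6 of 14 G1/S genes; genes with 2 windows have the matches of both drawn on 1 line.

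The siRNA target was depleted. Zbp1, which encodes Z-DNA-binding protein 1, a sensor of left-handed nucleic acids, stood at 86.0 and 62.0 FPKM in siScr replicates 1 and 2 and at 11.5 and 11.6 FPKM in the siZBP1 replicates. Its log2(FPKM + 1) fell by 2.56 (SE 0.16, adjusted p = 0.0032 by limma). The cultures expressed mesenchymal genes, led by Col1a1 (a chain of type I collagen) at 3066, 2520, 1128 and 1191 FPKM in siScr 1, siScr 2, siZBP1 1 and siZBP1 2. They also expressed all 16 macrophage markers listed, led by Lyz2 (lysozyme) at 2814, 3647, 5871 and 5402 FPKM, so the dividing cells may be of more than one type. Of 13 tested mesenchymal markers 6 were lower and 1 was higher in siZBP1, and of 16 macrophage markers 10 were higher and 0 were lower. Of all genes tested, 14.8% were lower and 13.5% were higher. The summed level of the 14 mesenchymal markers was 6007 and 4983 FPKM in siScr and 3568 and 3603 FPKM in siZBP1, and that of the macrophage markers was 9115 and 10097 FPKM in siScr and 14620 and 13898 FPKM in siZBP1. The part of this shift in the levels of the replication and mitosis genes was not tested. Erythroid markers, of which 4 of the 6 listed were among the genes measured, summed to at most 0.972 FPKM, led by Epor at up to 0.728 FPKM. Of the 7 granulocyte and progenitor markers listed, 6 were among the genes measured. They summed to between 0.322 and 4.7 FPKM, led by S100a8, with Mpo, Elane and S100a9 listed at 0 in every sample. Lymphocyte markers summed to between 3.97 and 5.87 FPKM, most of it Cd4, a gene that macrophages can also express, with Cd3g listed at 0. Endothelial markers summed to between 4.52 and 5.42 FPKM, led by Kdr.

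Against the mean of the 2 siScr samples, the replication and mitosis genes had no common direction of change in siZBP1. The sign of their median difference depended on which siScr sample served as control, as described below. All 44 had a mean of at least 1 FPKM and were tested by limma among 11959 genes. Of these 44, 1 was lower in siZBP1 at an adjusted p under 0.05 (Cdt1) and 0 were higher, where 14.8% of all genes tested were lower and 13.5% were higher. The median difference of the 44 genes, siZBP1 minus siScr on the log2(FPKM + 1) scale, was 0.0034, with 22 genes below 0 and 22 above, and the median over all genes tested was 0.0045. No member had group means over 1.5-fold apart, against 13.7% of all genes tested. The 95% intervals of the 44 differences reached from -0.90 to 1.18, and in 19 genes the interval reached past a 1.5-fold lower value, in 22 past a 1.5-fold higher value and in 10 past both. At an unadjusted p under 0.05, 1 member was lower and 0 were higher, against 21.3% and 20.7% of all genes tested.

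The largest variation in these genes lay between the 2 siScr samples. In all 44 genes the level was higher in siScr replicate 2 than in siScr replicate 1, where 44.7% of all genes tested were. The median difference, siScr replicate 2 minus replicate 1, was 0.59 on the log2(FPKM + 1) scale for the 44 genes and -0.017 for all genes tested. In 30 of 44 the level in siScr replicate 2 was over 1.5-fold that in replicate 1, against 3.2% of all genes tested. Of the 44 genes, 40 lay above the 95th percentile of this difference over all genes, which was 0.33. These 2 samples are 1 pair, so the difference between them has no replicate of its own and no test.

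The siZBP1 samples resembled each other more closely in these genes. Their median difference, replicate 2 minus replicate 1, was 0.079, and no member differed over 1.5-fold between them, against 3.31% of all genes tested. In 43 of 44 genes the siScr samples were further apart than the siZBP1 samples, against 56.9% of all genes tested; Gins1 was the exception. In 43 of 44, all but Cdt1, the difference between the siScr samples was also larger than the difference between the group means, against 31.7% of all genes tested. Both siZBP1 values fell between the 2 siScr values in 35 of 44 genes, against 8.69% of all genes tested. The groups did not overlap in 2 genes, both lower in siZBP1 (Cdt1 and Rrm1), and in 0 genes higher in siZBP1, against 33.7% and 34.7% of all genes tested.

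**Figure D2:**
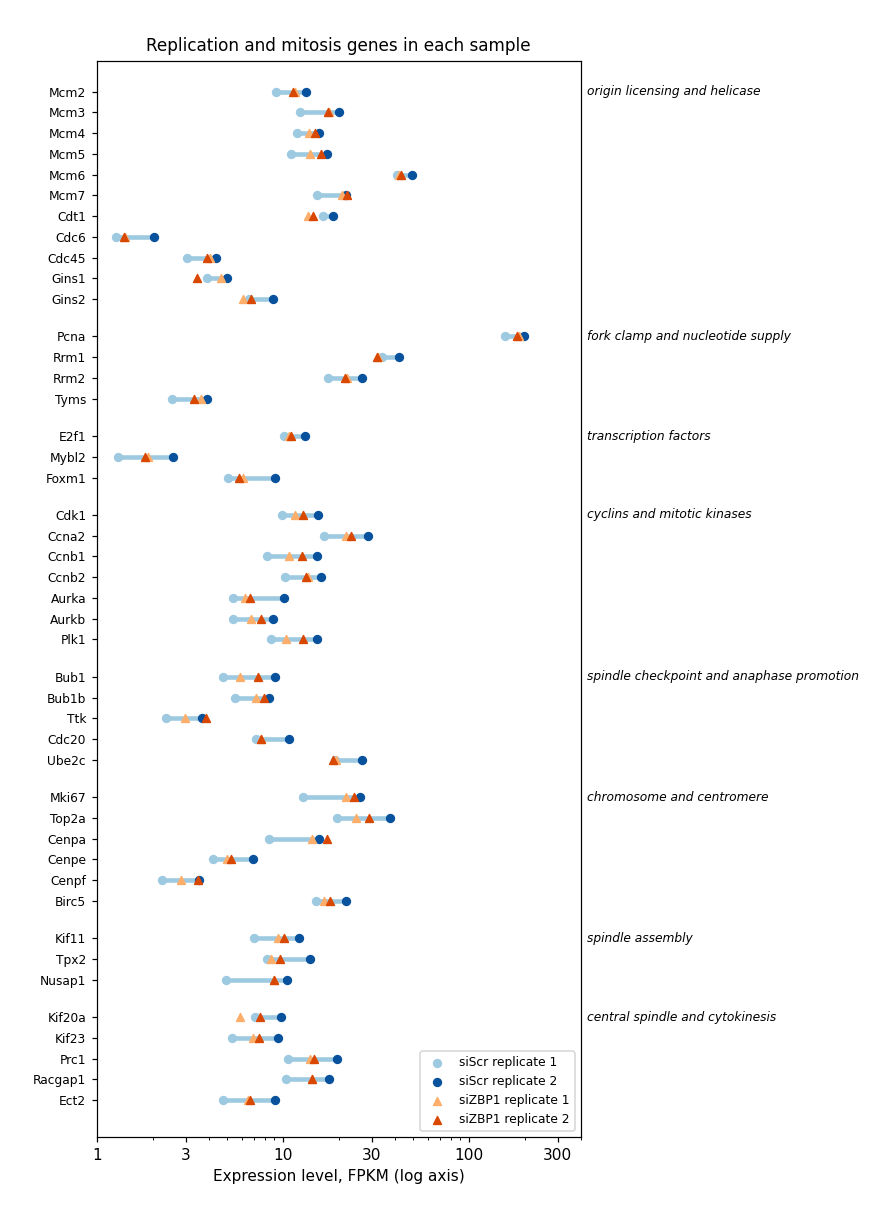
FPKM (log axis) of each of the 44 genes, by role, in siScr replicates 1 and 2 (pale and dark circles joined by a line) and siZBP1 replicates 1 and 2 (pale and dark triangles). The dark circle lies to the right of the pale circle in every row, and in 35 of 44 rows both triangles lie between the circles.

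**Figure D3:**
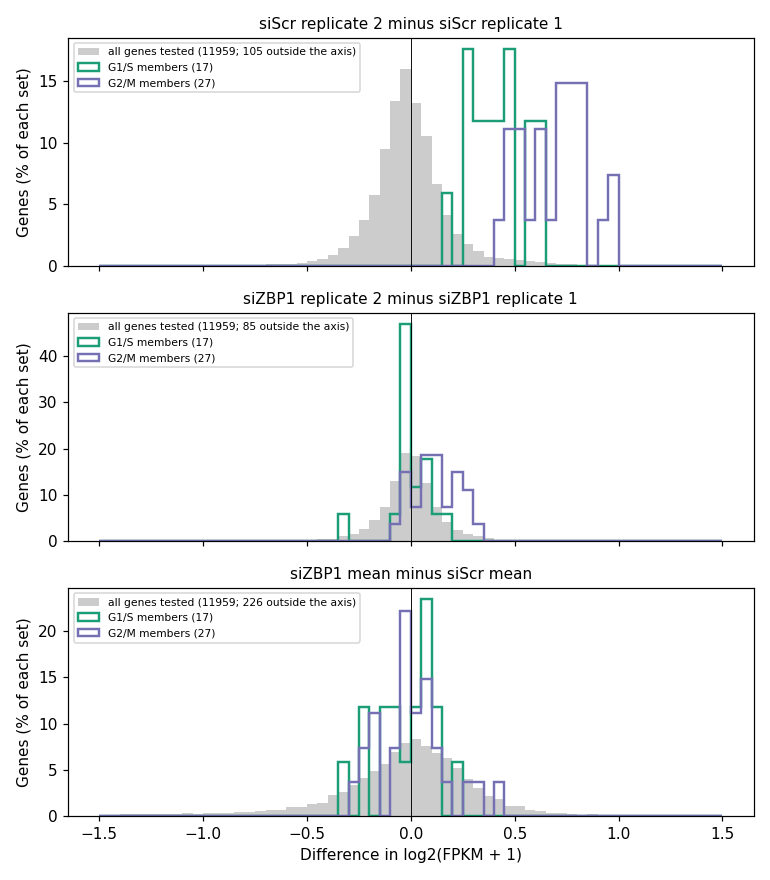
Distribution of the difference in log2(FPKM + 1) between the siScr replicates (top), between the siZBP1 replicates (middle) and between the group means (bottom) for the 11959 genes tested (grey), the 17 G1/S members (green) and the 27 G2/M members (purple), as a percentage of each set. Members lie to the right of most genes in the top panel, with medians of 0.41 (G1/S) and 0.72 (G2/M), and around 0 in the bottom panel.

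Among the 44 genes the siScr difference was larger for those of G2/M than for those of G1/S, on a scale that understates changes of genes with low levels. The 27 G2/M genes differed by a median of 0.72, from 0.41 (Kif20a) to 0.97 (Mki67), and 24 of them exceeded 1.5-fold. The 17 G1/S genes differed by a median of 0.41, from 0.17 (Cdt1) to 0.64 (Mcm3), and 6 of them exceeded 1.5-fold. Between the siZBP1 samples the medians were 0.11 for G2/M genes and -0.011 for G1/S genes. The difference between the group means had a median of -0.001 for G2/M genes and 0.015 for G1/S genes. The gap between phases in the siScr difference was not tested, and in further lists of genes that are not among the 44 the medians were 0.53 for 37 replication genes and 0.55 for 59 mitosis genes.

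Origins are licensed in G1, when Cdc6 and Cdt1 load the MCM helicase on DNA, and activated in S phase, when Cdc45 and the GINS subunits join MCM to form the active helicase. Cdt1 was the member that passed the test. It stood at 16.5 and 18.7 FPKM in the siScr replicates and at 13.6 and 14.5 FPKM in the siZBP1 replicates. Both siZBP1 values were thus below both siScr values, and Cdt1 had the smallest siScr difference of the 44 genes. Its log2(FPKM + 1) fell by 0.31 (SE 0.079, 95% interval -0.51 to -0.096, adjusted p = 0.0496 by limma), and the siZBP1 mean was 0.797 of the siScr mean. The call lay at the threshold: across the alternatives that keep all samples the adjusted p of Cdt1 ran from 0.0336 to 0.0717 by limma. With 1 sample left out the difference of Cdt1 ran from -0.39 (without siScr replicate 1) to -0.22 (without siScr replicate 2). Gins2, a GINS subunit, was at 6.56 and 8.87 FPKM in siScr and at 6.12 and 6.73 FPKM in siZBP1, with a difference of -0.22 (adjusted p = 0.328 by limma). Here siZBP1 replicate 2 lay between the siScr values and siZBP1 replicate 1 below them. Gins1 was at 3.93 and 5.04 FPKM in siScr and at 4.65 and 3.45 FPKM in siZBP1, the widest siZBP1 difference of the members.

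The 6 MCM subunits assemble as a ring in equal numbers, and their transcripts did not have equal levels. Mcm6 was the most abundant at 41.2 and 49.5 FPKM in siScr and 42.0 and 43.0 FPKM in siZBP1. The other 5 had mean levels between 11.4 (Mcm2) and 20.03 FPKM (Mcm7). On the log2(FPKM + 1) scale Mcm3 had the largest siScr difference among G1/S genes. It was at 12.4 and 20.0 FPKM in siScr and at 17.6 and 17.5 FPKM in siZBP1. As a ratio of siScr replicate 2 to replicate 1, Mybl2 (1.972) and Cdc6 (1.616) exceeded Mcm3 (1.604). Mcm7 was at 15.4 and 21.9 FPKM in siScr and at 20.7 and 22.2 FPKM in siZBP1, so the siZBP1 samples lay near the higher siScr sample. Differences between group means for the 6 subunits ran from -0.086 (Mcm6) to 0.21 (Mcm7), and none passed the test. Cdc6 and Cdc45 were low, at mean levels of 1.53 and 3.84 FPKM, with both siZBP1 values between the siScr values.

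Pcna, the sliding clamp that holds DNA polymerase on the template, was the most abundant member at 156 and 199 FPKM in siScr and 185 and 182 FPKM in siZBP1. Its siZBP1 values lay between the siScr values and within 1.5-fold of both. Rrm1, the large subunit of ribonucleotide reductase, which makes deoxyribonucleotides, was at 34.1 and 41.9 FPKM in siScr and at 32.3 and 32.2 FPKM in siZBP1. Both siZBP1 values were below both siScr values, but the difference of -0.22 (SE 0.10, 95% interval -0.50 to 0.050) did not pass the test (adjusted p = 0.179 by limma). Rrm2, the small subunit of the same enzyme and the one whose level follows S phase, was at 17.6 and 26.7 FPKM in siScr and at 22.1 and 21.7 FPKM in siZBP1, between the siScr values. Tyms, thymidylate synthase, was low, at 2.53 and 3.91 FPKM in siScr and 3.62 and 3.34 FPKM in siZBP1.

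Of the transcription factors, E2f1 drives genes of G1/S, and Mybl2 (B-MYB) and Foxm1 drive genes of G2/M. Mybl2 was at 1.31 and 2.58 FPKM in siScr and at 1.89 and 1.82 FPKM in siZBP1. Foxm1 was at 5.07 and 9.04 FPKM in siScr and at 6.08 and 5.79 FPKM in siZBP1, and E2f1 at 10.2 and 13.1 FPKM in siScr and 10.8 and 11.03 FPKM in siZBP1. All 3 factors had both siZBP1 values between the siScr values. The siScr difference was 0.33 for E2f1, 0.63 for Mybl2 and 0.73 for Foxm1, so it was smallest for the E2F factor.

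Cyclins and mitotic kinases bring the cell into mitosis. Cdk1 is the kinase, cyclins A2, B1 and B2 are its partners, and Plk1 and the Aurora kinases act at centrosomes, kinetochores and the cell midzone. Ccna2 was the most abundant of the 7 at 16.6 and 28.8 FPKM in siScr and 21.8 and 23.2 FPKM in siZBP1. Ccnb1 was at 8.24 and 15.2 FPKM in siScr and at 10.8 and 12.7 FPKM in siZBP1. Cdk1 was at 9.86 and 15.6 FPKM in siScr and at 11.6 and 12.9 FPKM in siZBP1. In all 7 genes of this role siScr replicate 2 was over 1.5-fold above replicate 1 and both siZBP1 values lay between them. The 2 Aurora kinases differed in where they lay: the siZBP1 mean of Aurka was 0.831 of its siScr mean and that of Aurkb 1.01, and neither passed the test. Plk1 was at 8.68 and 15.3 FPKM in siScr and at 10.4 and 12.9 FPKM in siZBP1. On the log2(FPKM + 1) scale it had the difference between group means closest to 0, at -0.001. As a ratio of mean FPKM, siZBP1 to siScr, Plk1 was at 0.9685 and Ccnb1 at 0.9998.

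The spindle checkpoint genes Bub1, Bub1b and Ttk delay anaphase until chromosomes are attached, and Cdc20 and Ube2c act with the anaphase-promoting complex to end the delay. Bub1 was at 4.80 and 9.05 FPKM in siScr and at 5.87 and 7.34 FPKM in siZBP1, and Bub1b at 5.50 and 8.40 FPKM in siScr and 7.15 and 7.94 FPKM in siZBP1. Ttk was at 2.36 and 3.66 FPKM in siScr and at 3.00 and 3.85 FPKM in siZBP1, with siZBP1 replicate 2 above both siScr samples. Cdc20 was at 7.14 and 10.8 FPKM in siScr and at 7.61 FPKM in both siZBP1 samples. Ube2c was at 19.2 and 26.7 FPKM in siScr and at 19.4 and 18.7 FPKM in siZBP1, with a difference of -0.24 (95% interval -0.65 to 0.18). The 3 checkpoint genes had differences between -0.012 and 0.16 and the 2 partners of the anaphase-promoting complex -0.19 and -0.24; none passed the test.

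On the log2 scale with the pseudocount, the genes of chromosomes and centromeres held 2 of the 3 largest siScr differences, those of Mki67 and Top2a. Mki67 encodes Ki-67, the coat of mitotic chromosomes used to mark dividing cells. It was at 12.8 and 26.03 FPKM in siScr and at 21.8 and 24.2 FPKM in siZBP1, so siScr replicate 2 was 2.04 times replicate 1. Top2a, the topoisomerase that untangles sister DNA, was at 19.6 and 37.7 FPKM in siScr and at 24.9 and 29.1 FPKM in siZBP1. Cenpa, the histone H3 variant that marks centromeres, was at 8.42 and 15.6 FPKM in siScr and at 14.4 and 17.2 FPKM in siZBP1. Cenpa had the largest positive difference of the 44 genes, 0.42 (SE 0.29, 95% interval -0.33 to 1.18, adjusted p = 0.328 by limma), with siZBP1 replicate 1 between the siScr values and replicate 2 above them. Cenpe, a kinetochore motor, and Cenpf, a kinetochore protein, had means of 5.35 and 3.02 FPKM and differences of -0.070 and 0.11. Birc5 (survivin), a subunit of the chromosomal passenger complex, was at 15.1 and 21.9 FPKM in siScr and 16.7 and 17.98 FPKM in siZBP1.

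Spindle assembly was represented by Kif11, the motor that pushes spindle poles apart, Tpx2, which activates Aurora A on microtubules, and Nusap1, which bundles microtubules. Nusap1 was at 4.93 and 10.5 FPKM in siScr and at 8.97 and 8.99 FPKM in siZBP1, with a ratio of 2.13 between the siScr samples, the highest of the 44 genes. Tpx2 was at 8.24 and 14.0 FPKM in siScr and at 8.63 and 9.71 FPKM in siZBP1, and Kif11 at 7.01 and 12.3 FPKM in siScr and 9.40 and 10.2 FPKM in siZBP1. Within this role the siZBP1 samples lay near the lower siScr sample for Tpx2 and nearer the higher one for Nusap1. The differences between group means were -0.21 and 0.27, and neither passed the test.

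Kif20a, Kif23, Prc1, Racgap1 and Ect2 build the central spindle and set up the cleavage furrow. Kif20a was at 7.05 and 9.72 FPKM in siScr and at 5.88 and 7.58 FPKM in siZBP1, a difference of -0.27 (95% interval -0.76 to 0.21, adjusted p = 0.322 by limma). In Kif23 and Racgap1, the 2 partners of the centralspindlin complex, both siZBP1 values lay between the siScr values, and the differences were 0.0078 and 0.073. Ect2, the exchange factor that activates RhoA at the furrow, was at 4.76 and 9.13 FPKM in siScr and at 6.50 and 6.62 FPKM in siZBP1. Prc1, which crosslinks antiparallel microtubules, was at 10.7 and 19.5 FPKM in siScr and at 14.1 and 14.8 FPKM in siZBP1.

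The sign of the siZBP1 difference depended on which siScr sample served as control. Against siScr replicate 1 alone the siZBP1 mean was higher in 39 of 44 genes, with a median of 0.32, and 8 genes were called higher by limma (Mcm3, Mcm7, Pcna, Ccna2, Mki67, Cenpa, Nusap1 and Racgap1), where 8.52% of all genes tested were called higher in that fit. Against siScr replicate 2 alone it was lower in 43 of 44 genes, with a median of -0.31, and 2 genes were called lower (Rrm1 and Ube2c), where 6.36% of all genes tested were called lower. At an unadjusted p under 0.05 the counts were 22 higher in the first fit and 26 lower in the second, against 19.6% and 18.6% of all genes tested. The median over all genes tested was 0.0027 and 0.0014 in the same fits. In these fits the lone siScr sample is assumed to vary like the siZBP1 samples. Mki67 differed by 0.80 against replicate 1 alone (adjusted p = 0.031), by -0.17 against replicate 2 alone (adjusted p = 0.254) and by 0.31 against both (adjusted p = 0.522, all by limma). With siZBP1 replicate 1 or 2 left out the medians were 0.05 and -0.033, against 0.0037 and 0.0052 over all genes tested.

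**Figure D4:**
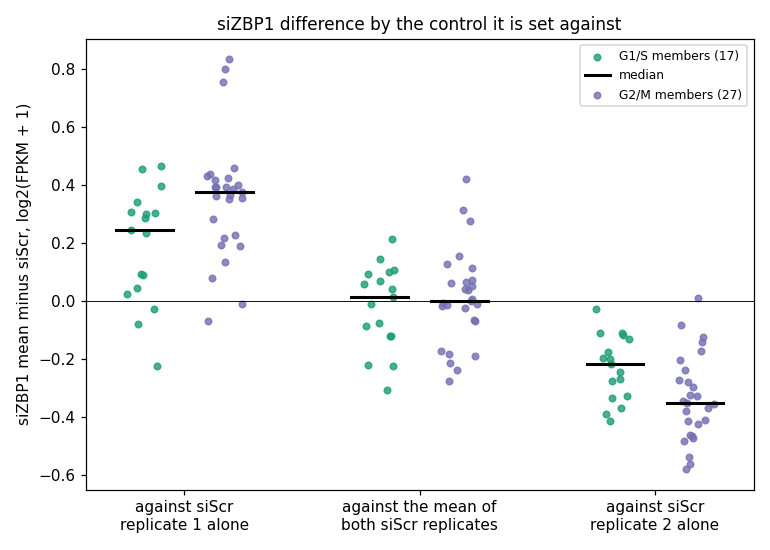
Difference in log2(FPKM + 1) between the siZBP1 mean and siScr replicate 1 alone (left), the mean of both siScr replicates (middle) or siScr replicate 2 alone (right) for the 17 G1/S (green) and 27 G2/M (purple) members, with medians as bars. Values lie mostly above 0 on the left, on both sides in the middle and below 0 on the right in 43 of 44 genes.

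Placed on the line from siScr replicate 1 (0) to siScr replicate 2 (1) on the log2 scale, the siZBP1 mean had a median position of 0.505 over the 44 genes, 0.526 for G1/S and 0.499 for G2/M genes. Cenpa (1.01), Mcm7 (0.946) and Ttk (0.829) lay nearest to or past siScr replicate 2. Cdt1 (-1.33), Rrm1 (-0.275), Kif20a (-0.166), Gins2 (-0.068) and Ube2c (-0.021) lay past siScr replicate 1 on the low side.

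Some other measures were also higher in siScr replicate 2 and some were lower. The macrophage markers had a median siScr difference of 0.021, with 12 of 16 higher in replicate 2. The mesenchymal markers had a median of -0.26, with 2 of 14 higher in replicate 2, so mesenchymal levels were lower in the sample where replication and mitosis genes were higher. Zbp1 was also lower in siScr replicate 2, by 0.47 on the log2(FPKM + 1) scale. The depths of the libraries, relative to the shallowest, were estimated at 1.39 and 1.87 for the siScr samples and at 1.00 and 1.61 for the siZBP1 samples. These depths are estimates, printed without an error. The part of cell composition and depth in the siScr difference was not tested.

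A further 96 genes of DNA replication and mitosis, listed from general knowledge and not among the 44, also differed between the siScr samples. Their level was higher in siScr replicate 2 in 94 of 96, with a median difference of 0.54, and 58 of 96 exceeded 1.5-fold, against 44.7% and 3.2% of all genes tested. Both siZBP1 values lay between the siScr values in 58 of 96, against 8.69% of all genes tested. In 13 of 96 both siZBP1 values lay above both siScr values and in 4 of 96 below them, against 34.7% and 33.7% of all genes tested, where 0 and 2 of the 44 genes did. The median difference between group means was 0.031. By limma 0 of 96 were lower and 3 were higher in siZBP1 (Gtse1, Rfc3 and Ncapg2), against 14.8% and 13.5% of all genes tested. At an unadjusted p under 0.05 by limma the counts were 0 and 4, against 21.3% and 20.7% of all genes tested. The 96 genes had a median difference of 0.31 against siScr replicate 1 alone and of -0.24 against siScr replicate 2 alone. Over all genes tested these medians were 0.0027 and 0.0014. Leaving out siZBP1 replicate 1 or 2 moved the median of the 96 genes to 0.0795 or -0.0027. Set against siScr replicate 1 or 2 alone, Gtse1 was higher by 0.89 and 0.70, Rfc3 by 0.49 and 0.36 and Ncapg2 by 0.31 and 0.21. Gtse1, a microtubule-associated protein of G2 that also restrains p53, was at 7.90 and 9.16 FPKM in siScr and at 15.8 and 15.2 FPKM in siZBP1, a rise of 0.80 (SE 0.086, adjusted p = 0.00725 by limma). Rfc3, a subunit of the clamp loader that places PCNA on DNA, was at 8.05 and 8.92 FPKM in siScr and at 12.4 and 11.1 FPKM in siZBP1, a rise of 0.43 (SE 0.087, adjusted p = 0.028 by limma). Ncapg2, a condensin II subunit named because it was among these 3, was at 23.8 and 25.6 FPKM in siScr and at 29.3 and 30.2 FPKM in siZBP1, a rise of 0.26 (adjusted p = 0.033 by limma).

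The other genes with the largest differences in these lists did not pass the test. Among the replication genes Fen1, the flap endonuclease of Okazaki fragments, was at 12.1 and 18.2 FPKM in siScr and at 20.5 and 20.6 FPKM in siZBP1, above both siScr values, with a difference of 0.44 (adjusted p = 0.147 by limma). Orc6, an origin recognition subunit, differed by -0.48 (adjusted p = 0.149 by limma), and Chaf1b, a histone chaperone of the fork, by -0.25. Among the mitosis genes Spc25, a kinetochore subunit, differed by 0.45, Cks1b, a partner of cyclin-dependent kinases, by -0.34 and Anln, a scaffold of the furrow, by -0.30.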

How the data were processed

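The authors made TruSeq libraries from mRNA purified on beads, mapped the reads to mm10 with TopHat, and deposited FPKM per gene for each of the 4 samples. The methods name HTSeq and the submitters' processing notes name Cufflinks for the FPKM step, and the numbers of reads and the gene annotation were not given in the sources used here, so no counting error is printed. Relative depth was estimated from genes of very low mean FPKM that were detected in both samples compared. The most frequent FPKM ratio of a sample to siScr replicate 1 in these genes was taken, and its inverse served as relative depth. Where 1 read is set against 1 read, that ratio is the same in every gene.

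Each deposited FPKM value was increased by a pseudocount of 1 and put on the log2 scale. The 11959 genes whose mean over the 4 samples reached 1 FPKM were tested. Groups were compared with limma 3.58.1 (R 4.3.3) with a variance trend, two-sided, and genes were called at 0.05 after Benjamini-Hochberg adjustment over all genes tested. An exact permutation test of 2 against 2 samples cannot reach that threshold and was not used. The fit was tested on simulated data. Motifs were searched as exact words in the RefSeq windows. GENCODE M21 exons (GRCm38) were counted in the 60-base windows, and those printed for Mcm6, Top2a and Kif11 overlapped 0 exons. Tables were made with Python 3.11.15 and pandas 2.3.3.

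The 44 genes, the further lists and the marker lists were chosen with earlier results of these data known. Named are the 44 genes, Zbp1, the 2 largest rises and falls of each further list and the most abundant gene of each marker list. The 12 alternatives were another pseudocount (0.1 or 5), no filter or a mean of at least 5 FPKM, quantile normalization, median scaling, a replicate block, no variance trend and each sample left out. The authors' own fold changes and group means were not used.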

Additional observations from a re-analysis of the deposited data

How the results depend on the processing

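The count of members lower in siZBP1 was 1 (Cdt1) with a pseudocount of 0.1, with a mean of at least 5 FPKM (37 members tested) and with the replicate block, and 0 with a pseudocount of 5, no filter, quantile normalization, median scaling or no variance trend; with 1 sample left out it ran from 0 to 2. The count of members higher was 0 in every fit with all samples and ran from 0 to 8 with 1 sample left out, with 8 when siScr replicate 2 was left out. The median member difference of 0.0034 lay between -0.0064 (pseudocount 5) and 0.046 (quantile normalization, where the median of all genes moved to 0.043), and between -0.31 and 0.32 with 1 sample left out. The median difference between the siScr samples was 0.42 with a pseudocount of 5 and between 0.59 and 0.65 in the other fits. Of the further 96 genes 0 were lower in every fit, and 3 were higher as reported, 3 with the replicate block, 2 without the variance trend, 4 with median scaling, and from 0 to 11 with 1 sample left out. In the fits with all samples Cdt1 was the only member whose call changed. The sign of the difference changed in at most 7 members in those fits (median scaling). It changed in 21 of 44 without siScr replicate 1 and in 17 of 44 without siScr replicate 2. Without siZBP1 replicate 1 or 2 it changed in 6 and 7 of 44. The 2 replicate numbers share no stated culture or batch, and same-numbered samples deviated with a correlation of -0.063 across genes; with the block, no member's call changed.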
